A study of Mus musculus with 24 samples.

Results

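The autosomal H3K4me3 regions of the XY and XX gonadal progenitors at E10.5 were compared with each other, region by region and promoter by promoter. Their members were 77706 regions, 36828 from the XY list and 40878 from the XX list, out of 163037 H3K4me3 regions on all chromosomes in the 4 H3K4me3 lists of the series. They were obtained by joining overlapping peaks within each list and keeping chromosomes 1 to 19. A region was called shared when at least 1 bp of it was overlapped by a region of the other list, and otherwise was called present in that list alone. No measured level chose the members.

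The study profiled H3K4me3 and H3K27me3 in supporting cells of the mouse gonad before and after sex determination. Both progenitor populations were eGFP-positive cells sorted from E10.5 embryos that carry an SF1-eGFP transgene, in which Sf1 (Nr5a1) regulatory sequence drives the fluorophore, on a mixed C57BL/6 and CD1 background. They differ by chromosomal sex, XY or XX, the gonads were freed of mesonephros and pooled, and Drosophila S2 chromatin was added as a carrier to the native, MNase-digested chromatin of both. Each list pools 2 replicates and was called against an H3 library, so each population counts as 1 sample, there was no replicate check, and no difference between the populations could be tested. The E13.5 lists used as a further readout come from XY Sertoli cells of Sox9-CFP gonads and XX granulosa cells of TESM-CFP gonads, called pregranulosa cells here, on the same strain background. Intervals below are exact binomial 95% intervals and cover counting error over regions or genes, not the spread between embryos.

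The bipotential gonad arises as a thickening of the coelomic epithelium over the mesonephros, and its progenitors can still become Sertoli or pregranulosa cells. H3K4me3 is laid down by the SET1 and MLL methyltransferase complexes, is densest at CpG-rich promoters that are active or poised, and is read there by factors that help transcription start. Promoters that also carry H3K27me3, the Polycomb mark, are called bivalent and are common at developmental regulators. Regions of H3K4me3 far from an annotated start can be unannotated promoters or strongly marked enhancers.

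The 2 lists were made from libraries of very different depth. The XY list was called from 10162534 tags with a threshold of 6 tags per peak, and the XX list from 49254553 tags with a threshold of 21, a 4.85-fold difference in tags. The estimated fragment length also differed, at 70 bp for XY and 178 bp for XX, while 62.29% of XY tags and 65.73% of XX tags lay within peaks. The XX regions covered 86.9 Mb and the XY regions 60.8 Mb, 1.43 times as many bases for 1.11 times as many regions. The H3K27me3 lists differed in the same direction in tags, threshold and fragment length, but not in bases covered. Their joined autosomal regions numbered 9534 over 89.7 Mb in XY and 7805 over 82.2 Mb in XX. The XY one was called from 6470151 tags with a threshold of 14 and a fragment length of 70 bp. The XX one was called from 33185400 tags with a threshold of 55 and a fragment length of 182 bp. For both marks depth, fragment length and chromosomal sex moved together, and their parts in any difference below cannot be told apart. The lists hold no enrichment score, so a region records only that the mark was called there and over how many bases.

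The 200 bases at the centre of 6 regions are shown, from the plus strand of NCBIM37 (mm9), because each is the first of its kind by width or by bases covered at the promoter, with CpG dinucleotides in capitals. The first 3 are centres of regions that overlap promoters, of the Hoxb cluster in both lists (chr11:96161024-96161223), of Plvap in the XY list alone (chr8:74035348-74035547) and of Skor1 in the XX list alone (chr9:62995041-62995240). The other 3 lie over 10 kb from every start, near Nr2f2 in both lists (chr7:77478029-77478228), near Cpm in the XY list alone (chr10:116955668-116955867) and within Rcsd1 in the XX list alone (chr1:167623576-167623775). The Plvap and Skor1 stretches hold 10 CpG each, the Hoxb stretch, which lies in an intron of Hoxb6, holds 3, and the distal stretches hold 2, 0 and 1 in that order.
Hoxb cluster: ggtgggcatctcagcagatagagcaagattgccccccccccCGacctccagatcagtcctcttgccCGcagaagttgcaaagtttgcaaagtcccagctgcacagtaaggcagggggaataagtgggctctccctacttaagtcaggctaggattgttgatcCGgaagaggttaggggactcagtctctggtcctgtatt
Plvap: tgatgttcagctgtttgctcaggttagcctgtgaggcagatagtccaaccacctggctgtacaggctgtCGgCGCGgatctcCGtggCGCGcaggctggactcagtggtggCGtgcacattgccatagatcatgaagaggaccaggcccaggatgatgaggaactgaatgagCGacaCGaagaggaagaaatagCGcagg
Skor1: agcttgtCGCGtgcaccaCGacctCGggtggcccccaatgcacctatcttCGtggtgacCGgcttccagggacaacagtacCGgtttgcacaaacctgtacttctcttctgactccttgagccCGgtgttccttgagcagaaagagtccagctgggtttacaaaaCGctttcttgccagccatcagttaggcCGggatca
Nr2f2 distal: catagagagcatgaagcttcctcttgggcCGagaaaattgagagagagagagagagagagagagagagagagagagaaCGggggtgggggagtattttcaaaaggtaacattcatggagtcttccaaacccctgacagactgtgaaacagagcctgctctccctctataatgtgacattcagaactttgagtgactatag
Cpm distal: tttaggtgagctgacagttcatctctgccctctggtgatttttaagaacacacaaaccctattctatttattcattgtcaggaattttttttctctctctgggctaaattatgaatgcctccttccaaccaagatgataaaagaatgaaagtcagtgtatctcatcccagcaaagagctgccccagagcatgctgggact
Rcsd1 distal: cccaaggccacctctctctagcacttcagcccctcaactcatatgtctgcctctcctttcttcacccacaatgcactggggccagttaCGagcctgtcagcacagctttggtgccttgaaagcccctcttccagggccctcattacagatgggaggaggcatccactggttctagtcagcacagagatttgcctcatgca

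Most regions of either list were present in the other. Of the XY regions, 26078 (70.8%, interval 70.3 to 71.3) were overlapped by an XX region and 10750 were not. Of the XX regions, 24802 (60.7%, interval 60.2 to 61.1) were overlapped by an XY region and 16076 were not. Joined together the lists made 51460 loci, of which 24634 were in both. Sharing was spread over the genome, since the shared part of the XY list ran from 65.1% on chromosome 12 to 78.2% on chromosome 11 and that of the XX list from 57.2% on chromosome 18 to 65.7% on chromosome 7. When the XX list was reduced to its widest 19443 regions, which cover as many bases as the XY list, the XX share was 90.1% and the XY share 51.2%. That setting removes XX regions and no XY regions, so a lower XY share follows by construction. With equal numbers of regions the XX share was 65.3% and the XY share 68.8%.

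Position separated the classes. Within 2 kb of an annotated transcript start of any gene, 93.9% of 16351 XY regions and 88.1% of 16820 XX regions were shared. Between 2 and 10 kb the shares were 60.2% of 5718 XY regions and 44.9% of 6646 XX regions. Beyond 10 kb they were 49.4% of 14759 XY regions and 40.2% of 17412 XX regions. In both lists the shared part fell with each step away from a start, and most regions present in 1 list alone lay over 10 kb away (69.5% of those in XY and 64.7% of those in XX).

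**Figure D1:**
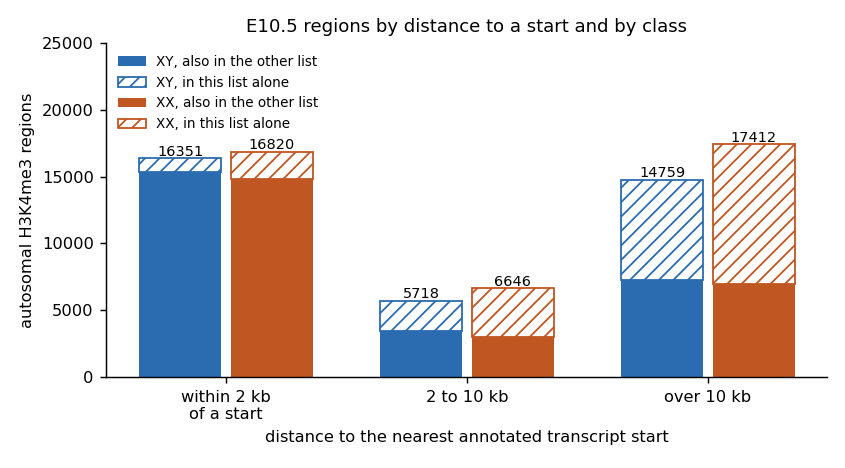
Number of autosomal H3K4me3 regions of the XY (blue) and XX (orange) progenitor lists by distance to the nearest annotated transcript start, with filled bars for regions overlapped by the other list and hatched bars for regions in that list alone. Near starts the filled part makes up 93.9% of the XY bar and 88.1% of the XX bar, and over 10 kb from a start it makes up 49.4% and 40.2%.

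Width separated them as well. All but 4 regions were at least 1001 bp wide, called the smallest width here, and 48.2% of XY regions but 25.2% of XX regions had exactly that width. At that width 43.5% of XY regions and 19.3% of XX regions were shared, whereas at 2001 to 3000 bp the shares were 99.6% and 88.7%. Of the 486 XY regions over 5 kb all were overlapped by an XX region, and of the 1497 XX regions over 5 kb, 1494 were overlapped by an XY region. Regions in the XY list alone had the smallest width in 93.4% of cases, against 51.6% of those in the XX list alone. Counting only regions over the smallest width in both lists, 94.8% of 19068 XY regions and 57.5% of 30595 XX regions were shared.

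At shared loci the XX region was usually the wider one. Over the 23257 loci made of 1 region from each list, the median width was 1579 bp in XY and 2329 bp in XX, the median XX to XY ratio was 1.30 (quartiles 1.10 and 1.60), and the XX region was the wider in 81.7%. The median ratio was 1.31 within 2 kb of a start and 1.28 over 10 kb away, so the widening was of like size at promoters and at distal loci. Another 1278 shared loci held several XY regions against 167 that held several XX regions.

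**Figure D2:**
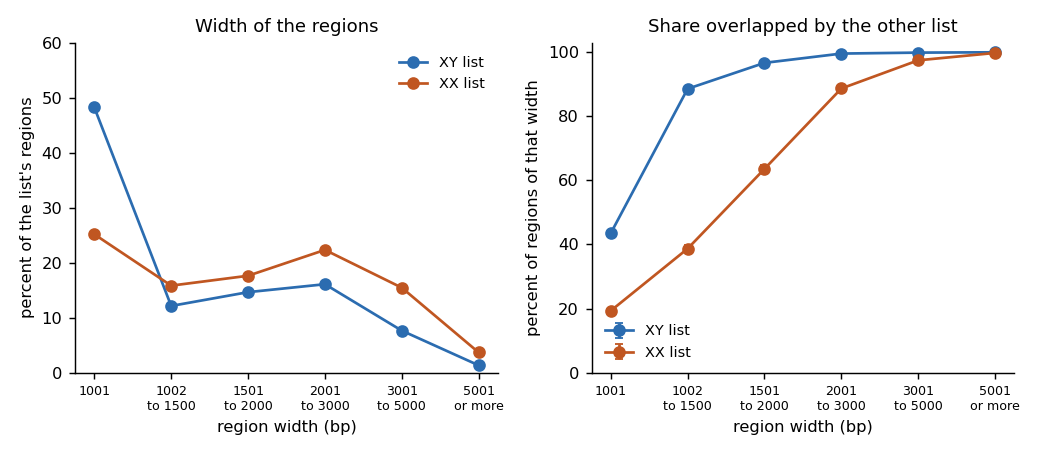
Left, percent of each list's regions by width in bp. Right, percent of the regions of each width that were overlapped by the other list, with exact 95% intervals that are mostly smaller than the points. The smallest width of 1001 bp holds 48.2% of XY and 25.2% of XX regions, and the share overlapped rises from 43.5% (XY) and 19.3% (XX) there to 99.8% or more in both lists above 5 kb.

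The promoters of most protein-coding genes carried the mark in both populations. A promoter here is the 4001 bp centred on the gene's 5′ end, and 21418 autosomal protein-coding genes were examined. The XY list marked 64.8% of them and the XX list 66.7%. Both lists marked 13672 promoters (63.8%), 209 (0.976%) were marked in XY alone, 610 (2.85%) in XX alone and 6927 in neither. With the 19443 widest XX regions in place of the whole list, 1182 promoters were marked in XY alone and 175 in XX alone. That setting removes XX regions and no XY regions, so a shift in this direction follows by construction. With equal numbers of regions 244 were marked in XY alone and 514 in XX alone.

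Among the promoters marked in both, 8953 (41.8% of all 21418) carried no H3K27me3 in either population and are called shared active promoters here. A further 4110 (19.2%) carried H3K27me3 in both and so were bivalent in both. Another 339 carried H3K27me3 in XY alone and 270 in XX alone. Of the shared active promoters, the median window cover was 2327 bp in XY and 2942 bp in XX, and 99.5% were marked again at E13.5 in Sertoli or pregranulosa cells.

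The mark sat asymmetrically over the starts of shared active promoters. At the start itself 95.4% of them lay inside an XY region and 97.4% inside an XX region. At 1000 bp into the gene the shares were 77.4% and 92.1%, and at 1000 bp upstream 41.5% and 63.9%. In both populations the regions reached farther into the gene than upstream, and the XX curve lay outside the XY curve on both sides.

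**Figure D3:**
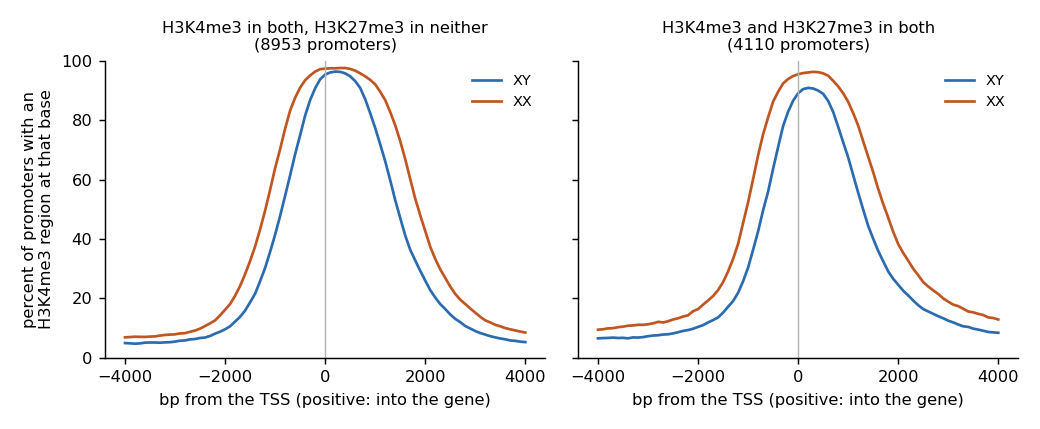
Percent of promoters with an H3K4me3 region at each base from 4 kb upstream to 4 kb downstream of the TSS, for 8953 shared active promoters (left) and 4110 promoters bivalent in both populations (right), XY in blue and XX in orange. At the TSS of active promoters the curves stand at 95.4% (XY) and 97.4% (XX), and at 1000 bp upstream at 41.5% and 63.9%.

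All 17 core factors of the early gonad were marked in both populations, against 63.8% of all promoters, with a median cover of 2937 bp in XY and 3669 bp in XX. The GATA factor Gata4 had 2658 bp covered in XY and 3702 bp in XX, its cofactor Zfpm2 2937 and 3964 bp, and the LIM-homeodomain factor Lhx9 3255 and 3454 bp. Nr5a1, the nuclear receptor whose regulatory sequence labels these cells, had 2841 bp in XY and 3063 bp in XX. The zinc finger factor Wt1, the homeodomain factor Emx2, the bHLH factor Tcf21, the orphan receptor Nr2f2 and the growth factor receptor gene Igf1r were covered over the whole 4001 bp in both. Their regions also ran well past the window, since that at Wt1 was 16789 bp wide in XY and 16690 bp in XX, and that at Emx2 17965 and 18774 bp.

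H3K27me3 divided the 17 factors. In both populations 9 of the 17 also carried it, against 19.2% of all promoters, among them Wt1, Nr5a1, Gata4, Zfpm2, Lhx9, Emx2, Tcf21 and Osr1, over at least 3860 bp of the window in each case. Another 7 carried H3K4me3 without H3K27me3, among them the homeobox gene Six4, Nr2f2, the coactivator Cited2, the kinase Map3k4 and the receptor genes Insr and Igf1r. Cbx2, a Polycomb subunit, had H3K27me3 over 3378 bp in XX and none listed in XY. The XY H3K27me3 list was called from fewer tags but covered more bases, and the part of depth was not tested. The transcription factors of the urogenital ridge were thus mostly bivalent, and the signalling genes Map3k4, Insr and Igf1r were not. The lists were made from a sorted population in which only some cells may carry each mark, so that both marks in 1 window may lie on different cells or alleles.

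**Figure D4:**
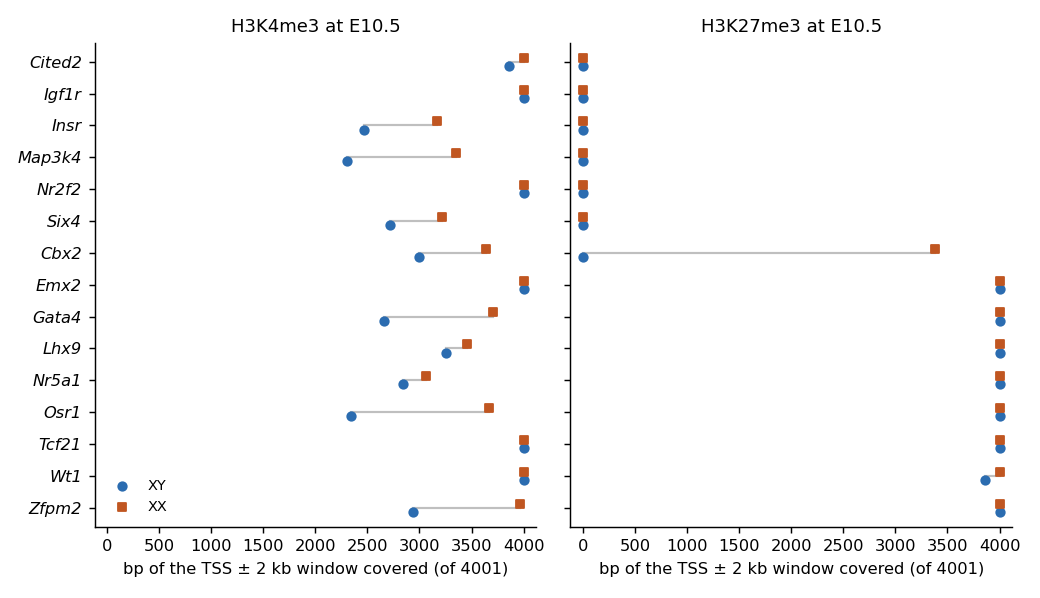
Bases of the 4001-bp window around the TSS covered by H3K4me3 (left) and H3K27me3 (right) regions at E10.5 for 15 of the 17 core gonad factors, with XY as blue circles and XX as orange squares. All genes drawn have H3K4me3 in both populations, from 2304 bp (Map3k4, XY) upwards, and the H3K27me3 panel divides them into genes at 0 and genes near 4001 bp, with Cbx2 at 0 in XY and 3378 bp in XX.

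Genes that later act in the testis or the ovary were also mostly marked in both, as were 63.8% of all promoters. Of 11 testis genes 9 were marked in both populations, with Sox9 and the FGF receptor gene Fgfr2 covered over 4001 bp in each, the growth arrest gene Gadd45g over 3489 bp in XY and 3808 bp in XX, and the activin subunit gene Inhbb over 3262 and 3824 bp. The 2 others were Ptgds, a prostaglandin synthase gene with no H3K4me3 region at E10.5 in either list, and Cyp26b1, a retinoic acid hydroxylase gene that was marked at another annotated start. The window of Amh, the anti-Müllerian hormone gene, had 150 bp in XY and 664 bp in XX, both from the edge of a region (3817 bp wide in XY and 4540 bp in XX) that lies mostly outside it. Of 14 ovary genes 13 were marked in both, with Fst (an activin antagonist), Irx5 and Wnt2b covered over 4001 bp in each and Irx3 over 3908 bp in XY and 4001 bp in XX. The exception, the β-catenin gene Ctnnb1, was marked in both at another start. No gene of either list was marked in 1 population alone, where 0.976% of all promoters were marked in XY alone and 2.85% in XX alone. In both populations 7 of the 11 and 12 of the 14 were bivalent, against 19.2% of all promoters.

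Steroidogenic genes were marked less often. Of 8, 2 were marked in both populations, 2 in XX alone and 4 in neither, against 63.8%, 2.85% and 32.3% of all promoters. Star, which carries cholesterol into mitochondria, had 1001 bp in XY and 2978 bp in XX. Mc2r, the ACTH receptor gene, had 2232 and 2885 bp. The Mc2r window held no H3K4me3 region in either E13.5 list, which set it apart from Star with 1765 bp in Sertoli and 2339 bp in pregranulosa cells. Cyp11a1, the cholesterol side-chain cleavage enzyme gene, had 1001 bp in XX alone and Hsd3b1 144 bp in XX alone. Both XX regions were 1001 bp wide, the smallest width.

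Genes of tissues beside the gonad were also counted, and those of several neighbouring tissues were mostly marked in both populations. The mark also lies at poised promoters, so neither its presence nor its absence at these genes tells which cells were sorted. All 8 mesonephric genes were marked in both populations and all 8 were bivalent in both, against 63.8% and 19.2% of all promoters, among them Sall1, Lhx1 and Pax2. Of 9 genes of the coelomic epithelium and gonadal interstitium 8 were marked in both, with Pdgfra and Maf covered over 4001 bp and the Hedgehog effector gene Gli1 over 3168 bp in XY and 3415 bp in XX. The ninth, the mesothelial gene Msln, had 112 bp in XX alone. Of 10 genes of neurons and neural crest 9 were marked in both, all 9 bivalent, with the LIM-homeodomain gene Isl1 covered over 3016 bp in XY and 3782 bp in XX. Sox10, a neural crest factor, was marked in XX alone, over 2073 bp, with H3K27me3 over 4001 bp in both. Of 7 muscle genes 6 were marked in both, including Myod1 and Pax7, which were bivalent, and Des and Actc1, which carried H3K4me3 without H3K27me3.

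Many defining markers of blood, endothelium, liver and germ cells had no region. Ptprc, Itgam and Csf1r of blood, Pecam1, Cdh5, Tek and Tie1 of endothelium, and Alb, Afp and Ttr of liver had no H3K4me3 region in the promoter window in either list, and of germ cell genes Ddx4, Nanos3 and Mael had none. The share marked in both was 2 of 7 for blood, 4 of 10 for endothelium, 4 of 9 for liver and endoderm and 4 of 12 for germ cells, against 63.8% of all promoters. Counted at any annotated start the numbers were 3, 5, 5 and 4 in that order, against 14163 of all 21418 genes. At another start Runx1 of blood had up to 3569 bp in XY and 4001 bp in XX, and Hnf4a of liver 1001 and 1054 bp. Those marked in both included bivalent regulators, such as Tal1 and Klf1 in blood, Kdr and Sox17 in endothelium, Foxa1 and Foxa2 in endoderm, and Prdm1, Kit and Sox2 in the germ cell list, but Dazl, an RNA-binding protein gene of germ cells, carried H3K4me3 over 1787 bp in XY and 2064 bp in XX without H3K27me3. In XX alone Dppa3 had 1260 bp, and Dnd1, Sycp3, Emcn, Eng and Gfi1b had 1001 bp each. No gene of these 4 lists was marked in XY alone, against 0.976% of all promoters. The part of other cells or of depth in these values was not tested.

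Genes used by nearly all cells were marked throughout. All 12 housekeeping and all 11 cell cycle genes were marked in both populations, against 63.8% of all promoters. Eef2 was covered over 3681 bp in XY and 4001 bp in XX, Actb over 3647 and 3534 bp and Polr2a over 3445 and 3669 bp. Pcna was covered over 3846 and 3719 bp and Mki67 over 3060 and 3118 bp. Ccnd1 and Ccnd2, the G1 cyclin genes, were covered over the whole window. They were the 2 of the 11 cell cycle genes that were bivalent in both, against 19.2% of all promoters. Another 1 of the 11 carried H3K27me3 in 1 population. Of the 12 housekeeping genes 9 carried no H3K27me3, 1 was bivalent in both, and 2, including Actb, carried H3K27me3 in 1 population. Of the writers and erasers of H3K4me3, 9 of 11 were marked in both at the 5′ end and the other two, Ash2l and Dpy30, at another start. Setd1b, a SET1-type methyltransferase gene, stood under a region of 12189 bp in XY and 14504 bp in XX. Of 11 Polycomb genes 10 were marked in both, including Eed, Suz12 and Ring1, and the other, Cbx7, at another start. Counted at any annotated start, all 11 genes of each of these lists were marked in both, against 14163 of all 21418 genes.

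The widest shared loci over a protein-coding start, ranked by the narrower of their XY and XX widths, were Hox clusters. The Hoxb3 to Hoxb9 locus (chr11:96129943-96192305) was 56520 bp wide in XY and 62290 bp in XX. Those of Hoxc4 to Hoxc8 were 47457 and 53971 bp, and those of Hoxa3 to Hoxa9 44401 and 50567 bp. Hoxd3 with Hoxd8 to Hoxd10, and Hoxc9 with Hoxc10, were also among the 10 widest. These clusters, which pattern the body axis, carried H3K27me3 in both populations as well. Other loci among the 10 stood at Nr2f2 (26230 and 29753 bp), the TALE homeobox gene Meis2 (21232 and 21280 bp), the starts of 2810030E01Rik and Mllt10 (19877 and 21160 bp) and Nr2f1 (18938 and 23851 bp). All 10 were present in both E13.5 lists.

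The best covered promoters marked in 1 population alone were of different genes in kind in XY and XX. The 8 in XY alone with the most bases covered were Plvap of fenestrated endothelium, the epidermal envelope gene Ivl, the protease inhibitor gene Wfdc15b, Gm13138, Tdpoz3, the bitter taste receptor gene Tas2r136, the complexin gene Cplx3 and the actin-binding protein gene Avil. Their regions were 1272 to 1877 bp wide and none was present in either E13.5 list. Those of Plvap and Cplx3 carried H3K27me3 in both populations. The 8 in XX alone were Skor1, Ddr2, Nkx1-1, Fezf2, Vax1, Tcfap2e, Lbx1 and Hes3. All but the collagen receptor gene Ddr2 encode transcriptional regulators of neural or other development and carried H3K27me3 in both populations. Their regions were 2227 to 6460 bp wide, and all 8 were present in at least 1 E13.5 list, 5 of them in both.

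The full sets also differed between XY and XX. Of the 209 promoters in XY alone, 43 (20.6%, interval 15.3 to 26.7) were marked at E13.5, and of the 610 in XX alone, 444 (72.8%, interval 69.1 to 76.3). For comparison, 99.4% of promoters marked in both and 7.22% of promoters marked in neither were marked at E13.5. H3K27me3 in both populations was present at 12 (5.74%) of the promoters in XY alone and 188 (30.8%) of those in XX alone. It was present at 30.1% of promoters with H3K4me3 in both and 3.64% of those with H3K4me3 in neither, so the XX value was close to that of shared promoters. The median region was 1001 bp wide in XY alone and 1262 bp in XX alone, and when regions of the smallest width were left out 24 and 1065 promoters were marked in 1 list alone. Chemosensory receptor genes, a family used mainly by sensory cells that was picked after the values were seen, made up 6.91% of all genes, 21 of the 209 in XY alone (interval 6.33 to 14.9%), 7 (1.15%) of those in XX alone and 7 of the 13672 marked in both.

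The E13.5 lists, which took no part in defining the classes, gave a like division across all regions. Shared regions were overlapped by an E13.5 Sertoli or pregranulosa region in 89.0% (XY) and 89.7% (XX) of cases. Regions in the XX list alone were overlapped in 47.9% (interval 47.1 to 48.6), and those in the XY list alone in 12.8% (interval 12.2 to 13.4). With equal bases covered the values were 68.1% for XX alone and 36.9% for XY alone, and without regions of the smallest width 66.0% and 35.6%. Of all autosomal windows of 1001 bp, 6.28% held an E13.5 region. At the smallest width of 1001 bp, where both classes have the same target size, the values were 38.6% for XX alone and 11.8% for XY alone. Both classes were more often found in pregranulosa than in Sertoli cells, at 41.7% against 29.4% for XX alone and 9.78% against 6.83% for XY alone, where the pregranulosa list holds 43367 regions and the Sertoli list 38056. The Sertoli list was called from 31104760 tags, and the depth of the pregranulosa list is not given in the sources used here.

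**Figure D5:**
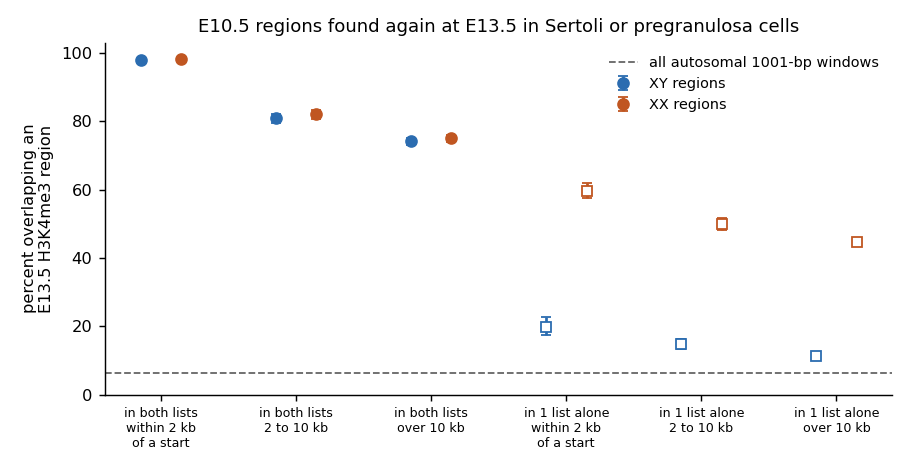
Percent of E10.5 regions overlapping an E13.5 H3K4me3 region of Sertoli or pregranulosa cells, by class and distance to a transcript start, with exact 95% intervals (counting error) and a dashed line at the 6.28% of all 1001-bp windows that do so. Shared regions lie between 74.1% and 98.2%, regions in XX alone between 44.8% and 59.7% and regions in XY alone between 11.2% and 19.9% for the lists as deposited.

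Away from starts, 9848 shared loci lay over 2 kb and 6915 over 10 kb from every annotated transcript start. The first count was 6148 in the widest 75% of each list, 4411 with equal bases covered and 4234 without regions of the smallest width. Of the 9848, 56.4% had their centre between genes, 38.9% in an intron and 4.76% in an exon, and 26.3% overlapped an H3K27me3 region of either population. At E13.5 77.6% (interval 76.7 to 78.4) were present, 63.0% in Sertoli and 73.7% in pregranulosa cells and 59.1% in both. The 9752 loci in XY alone at that distance were present at E13.5 in 12.0% and the 14067 in XX alone in 46.2%. The marked distal loci of the progenitors were thus mostly present again at E13.5 where both lists held them.

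The 8 widest shared loci over 10 kb from a start, ranked by the narrower of their XY and XX widths, were present in both E13.5 lists. The first (chr7:77472475-77483783) lay 33492 bp downstream of the Nr2f2 start, between genes, and was 9984 bp wide in XY and 10920 bp in XX. The next (chr2:115676922-115687864) lay 209182 bp downstream of the Meis2 start, at 9221 and 10892 bp. Nr2f2 and Meis2, which had very wide promoter loci, were thus also the nearest coding starts to the 2 widest distal ones. The first lay beside the Nr2f2 promoter locus (chr7:77487430-77517182), and the second 10815 bp from the nearest annotated transcript start. Which gene either distal locus acts on was not tested. The others lay near Olfr1423 (8738 and 10113 bp), in introns of Trio (7958 and 11618 bp), Eif4e3 (7869 and 8233 bp), Tns3 (6820 and 8187 bp) and Btbd9 (6961 and 6671 bp), and near Gm9953 (6801 and 7910 bp).

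Core gonad factors had such loci close by. Of the 17, 16 had at least 1 shared locus away from a start within 100 kb of their TSS, against 54.2% of all protein-coding genes, whose median was 1. Wt1 had 10 and Gata4 8, where the 95th percentile over all genes was 4, and Map3k4 had none.

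Distal regions in 1 list alone were narrower. The widest in XY alone reached 3995 bp and lay upstream of Cpm, followed by those in Far2 (3138 bp), Adra1a (2752 bp) and Auts2 (2687 bp). Of these the Cpm region was present in Sertoli and the Far2 region in pregranulosa cells, and those in Adra1a and Auts2 were in neither. The 5 widest in XX alone were 4459 to 5510 bp wide and included those in Rcsd1, Tshz2 and Itpr1 and upstream of G930045G22Rik. That in Itpr1 was present in both E13.5 lists, those in Rcsd1 and near G930045G22Rik in pregranulosa cells alone, and that in Tshz2 in neither.

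Base composition differed with distance and class over the whole sets, while single regions varied. Among the printed stretches the shared Hoxb one had fewer CpG than those of Plvap and Skor1, each in 1 list alone. In the central 300 bp, shared regions within 2 kb of a start had a median GC content of 60% in XY and 59.7% in XX, with 16 CpG sites, and 52.5% and 51.2% were island-like, meaning GC content over 50% and an observed to expected CpG ratio over 0.6. Shared regions over 10 kb away had a median GC content of 50% with 6 CpG sites in both lists, and 726 of 7284 XY regions (9.97%) and 701 of 7005 XX regions were island-like. Far regions in XX alone had a GC content of 48.7% with 4 CpG sites and far regions in XY alone 44.3% with 2, and 2.01% and 1.22% were island-like. Far regions in XY alone were thus the poorest in CpG. The part of the difference in fragment length and depth in these values was not tested.

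Short motifs were counted on both strands of the same 300 bp, as a description of letters and not of binding. CAAGGTCA, the half-site that NR5A1 and related orphan receptors recognise, was in 4.11% (interval 3.74 to 4.51) of far regions in XX alone, 2.37% (2.04 to 2.74) of far regions in XY alone, 2.35% (XY) and 2.27% (XX) of shared far regions, 1.54% and 1.62% of shared regions near a start and 1.14% of all protein-coding promoters. Far regions in 1 list alone that were also in an E13.5 list held it in 5.36% (4.73 to 6.04) of XX and 4.78% (3.44 to 6.46) of XY regions. Those in no E13.5 list held it in 3.10% and 2.06%. The same letters read backwards, ACTGGAAC, which have the same composition and no CpG, were in 0.951% of far regions in XX alone and in 75 of the 7473 in XY alone, close to the 0.999% of all promoters. The half-site was thus most frequent in distal regions of 1 progenitor list that were found again in a differentiated supporting cell, in both sexes.

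The 4 widest far regions in XX alone that were also in an E13.5 list and held CAAGGTCA are shown by the 60 bases around it, on the plus strand of NCBIM37 with the half-site in capitals. They were chosen after the counts were seen, as examples of where the letters lie. They are at chr11:43362425-43362484, 20277 bp from the Ccnjl start, chr7:4900955-4901014, 14889 bp from the Sbk2 start, chr6:39010517-39010576, 57781 bp from the Parp12 start, and chr17:63084625-63084684, 128618 bp from the Efna5 start, each distance measured from the centre of the region. The regions were 3320, 3117, 2914 and 2836 bp wide in that order, and all but the Parp12 one, which was in Sertoli cells alone, were in both E13.5 lists.
Ccnjl distal: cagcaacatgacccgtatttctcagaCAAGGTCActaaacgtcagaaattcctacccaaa
Sbk2 distal: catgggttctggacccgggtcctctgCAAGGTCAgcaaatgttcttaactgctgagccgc
Parp12 distal: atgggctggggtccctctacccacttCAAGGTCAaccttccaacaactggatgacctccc
Efna5 distal: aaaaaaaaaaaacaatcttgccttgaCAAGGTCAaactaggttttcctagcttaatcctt

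The other motifs differed between shared regions near a start and the remaining classes. The motif of GATA factors, read as AGATAAG, was in 6.78% of far regions in XX alone, 5.19% of those in XY alone and 5.22% (XX) and 4.49% (XY) of shared far regions, against 1.91% and 1.75% of shared regions near a start and 2.06% of all promoters. Regions near a start in 1 list alone held it in 5.73% (XX) and 4.81% (XY), close to the far values. CCGGAAGT, an ETS factor motif, was in 2.22% (XX) and 2.40% (XY) of shared regions near a start and 4.85% of all promoters, against 0.797% and 0.301% of regions near a start in 1 list alone and at most 0.522% of far regions of any class. Read backwards, GAATAGA was in 2.74% of far regions in XX alone and 4.01% of those in XY alone. It was in 1.56% (XX) and 1.47% (XY) of shared regions near a start and 1.84% of all promoters, so these letters also differed with distance. TGAAGGCC was in 1.25% and 1.03% of the same far regions, and in 1.15% (XX) and 1.05% (XY) of shared regions near a start. The GATA and ETS motifs differ in CpG and GC content, which the classes also do.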

How the data were processed

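H3K4me3 and H3K27me3 were measured by native ChIP-seq in progenitors sorted at E10.5. The deposited files are BED lists of HOMER regions on mm9, with a score column that the authors left at 1 in every row, so no enrichment value was used; headers of the progenitor lists name a peak size of 1000 bp for H3K4me3 and 5000 bp for H3K27me3, a 4-fold minimum over the H3 library and 2 combined replicates per list, and the pregranulosa list has no header. The submitters' processing notes name Trim Galore, Bowtie, SAMtools and HOMER; versions are not given in the sources used here. Chromosome names and lengths matched NCBIM37.

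Overlapping peaks were joined per list in Python 3.11.15 with NumPy 2.4.6; 1 bp of overlap made regions shared. Starts came from GENCODE M1, and promoters were TSS ± 2 kb of autosomal protein-coding genes. Of these windows 17.6% overlap another gene's. E13.5 Sertoli and pregranulosa H3K4me3 lists served as an independent readout, and 2 E13.5 H3K27me3 lists were not used. Intervals are Clopper-Pearson (SciPy 1.17.1). The overlap step gave the known class of 2000 of 2000 simulated regions and the same XY count as bedtools 2.31.1.

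The members, gene lists and naming rule were chosen with earlier results of these data known. Named were all core gonad factors, the best covered members of each other list with those that differed between populations, the widest shared loci, and the widest regions or best covered promoters in 1 list alone. The chemosensory family and the half-site examples were picked after values were seen. Tfap2c and Spi1 had no match by symbol. Some genes that the rule names are not reported here, and counts over lists include them. Alternatives covered overlap, joining, list length, window and distance.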

Additional observations from a re-analysis of the deposited data

How the results depend on the processing

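Each list pools 2 replicates, so leaving out a replicate was not possible. No paired analysis was possible because no value came from a test. Of 75 values recomputed under 13 other settings and 1 more chosen after seeing the data, 43 stayed within the 95% interval of a share or median, or within 1.5 times a count, and 32 did not. The share of XY regions in XX was 68.7% with 500 bp of overlap, 68.4% with at least 0.5 of the region covered, 75.7% in the widest 75% of each list, 68.8% with equal numbers of regions, 51.2% with equal bases covered and 94.8% without regions of the smallest width (the setting chosen later). The share of XX regions in XY was 59.2%, 52.7%, 65.4%, 65.3%, 90.1% and 57.5% in the same order, and 61.9% with peaks within 1 kb joined. Promoters in XY alone numbered 1182 with equal bases, 101 with the TSS itself inside a region and 24 without the smallest width, and those in XX alone 175 with equal bases and 1065 without the smallest width. Shared loci away from a start numbered 6148 in the widest 75%, 4411 with equal bases and 4234 without the smallest width. The width ratio was 1.29 with peaks within 1 kb joined and 1.32 in the widest 75%. The E13.5 share of regions in XX alone was 46.4% with 500 bp of overlap, 50.6% with equal numbers, 68.1% with equal bases and 66.0% without the smallest width. That of regions in XY alone was 11.2%, 15.3%, 36.9% and 35.6% in the same order, and 14.7% in the widest 75%. Under every alternative run for these E13.5 shares the XX value stayed above the XY value. Counts of promoters marked in both and of shared active promoters stayed within 1.5 times the values given under all alternatives run for them. Equal bases and the widest 75% keep fewer regions by construction, and otherwise the causes were not tested. The deposited lists allow no test of the spread between embryos, and a region missing from the XY list is not shown to be absent from those cells, since the XX list had 4.85-fold more tags and the part of depth was not tested.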
